A study of Mus musculus with 12 samples.

Results

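The cellular zinc genes measured here were the importers Slc39a8 (ZIP8) and Slc39a14 (ZIP14), the exporter Slc30a1 (ZnT1), the zinc sensor Mtf1, and the metallothioneins Mt1 and Mt2. They were taken by symbol from the deposited RNA-seq table, and all 6 were found among its 17536 genes. Slc39a8 was picked because it was higher in DZ cells labelled R3-cKO and not in SFZ cells, so its values are given as a description with no test. The other 5 genes were added as its partners in zinc handling.

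Chondrocytes of the superficial zone (SFZ) and the deep zone (DZ) were isolated from cartilage at the ends of the femur and tibia of 5-day-old C57BL/6 mice by successive digestions with trypsin and collagenase. By the study's methods, the dissociated cells were then plated on dishes coated with fibronectin and grown as a monolayer in medium with fetal bovine serum. The strain is given as in the labels, and the study's methods name the background C57BL/6J. R3-Cntl mice were Runx3 fl/fl, and R3-cKO mice were Col2a1-Cre; Runx3 fl/fl, so every animal carried the floxed Runx3 gene and only R3-cKO carried the Cre, which the Col2a1 promoter drives in chondrocytes and their precursors. Each of the 4 groups held 3 libraries (12 in all), which the study describes as coming from 3 individual littermate mice per genotype. Values are taken to be FPKM, in which fragments are divided by transcript length and library size. That unit was inferred from the values, and comparisons of level between different genes rest on it. Differences are on the log2(FPKM + 1) scale, which understates changes of genes near 1 FPKM.

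The targeted gene Runx3 had SFZ values (libraries 1, 2 and 3) of 10.73, 5.98 and 6.65 FPKM under the label R3-Cntl and 11.83, 9.07 and 3.42 FPKM under R3-cKO. In the DZ it was at 12.67, 12.65 and 7.66 in R3-Cntl and at 15.95, 12.66 and 8.14 FPKM for R3-cKO. The genotypes overlapped in both zones, so Runx3 was not lower in the libraries labelled R3-cKO. A value for the whole gene can also count transcripts that lack only the floxed part, and the genotype is therefore used as labelled. The labelled cell types were checked on marker lists. All 7 chondrocyte markers were detected in every group, with sums of 4670 to 13465 FPKM in the SFZ and 14849 to 32697 FPKM in the DZ. Of the 6 SFZ markers 5 were chosen on these data for separating the zones, so their sums check nothing. The other, Prg4 (lubricin), a known product of SFZ cells, separated the zones in R3-Cntl, with at least 7.13 FPKM in the SFZ and at most 1.47 FPKM in the DZ. It overlapped between zones in R3-cKO, where it spanned 2.13 to 6.95 FPKM in the SFZ and 1.32 to 5.72 FPKM in the DZ. The R3-Cntl SFZ libraries reached 115.7 FPKM of 6 skeletal muscle genes in library 2, against at most 19.3 FPKM in every group without it. Transcripts of 4 Y-linked genes summed to at least 12.1 FPKM in every R3-Cntl library, while among R3-cKO libraries only library 1 of each zone carried them (28.3 FPKM in the SFZ and 29.6 FPKM in the DZ), and the lowest sums were 0.03 and 0.01 FPKM. In bulk RNA, fewer cells of a type and less RNA per cell cannot be told apart.

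Zinc enters the cytosol through ZIP transporters and leaves it through ZnT transporters. ZIP8 and ZIP14 are close relatives at the cell surface that also carry manganese, iron and cadmium. Free zinc in the cell is bound by MTF1, a zinc finger transcription factor that then binds metal response elements (MREs) in the promoters of metallothionein genes and of Slc30a1. Metallothioneins are small cysteine-rich proteins that hold zinc and copper. In osteoarthritic cartilage, zinc entry through ZIP8 and the activation of MTF1 are known to raise matrix-degrading proteases, which is why these genes are followed in chondrocytes.

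Slc39a8 was the only one of the 6 genes whose genotypes did not overlap in the DZ, which is the pattern it was picked for. Slc39a14 was about 2-fold higher in DZ than in SFZ cells of both genotypes, and its genotypes overlapped in both zones. Slc30a1 overlapped between all groups, Mtf1 was nearly level, and Mt1 and Mt2 varied widely between libraries of the same group. No tested member passed an adjusted p of 0.05 by limma in any comparison.

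Slc39a8 (Entrez gene 67547, mm9 chr3:135488243-135551536, forward strand) was a low-abundance transcript. For R3-Cntl SFZ cells, libraries 1, 2 and 3 had 0.62, 0.81 and 0.94 FPKM (0.790 ± 0.161, mean ± SD, n = 3), and R3-cKO SFZ cells had 0.90, 0.89 and 0.79 FPKM (0.860 ± 0.061, n = 3). These ranges overlapped. In the DZ it was at 1.15, 1.29 and 1.27 in R3-Cntl (1.24 ± 0.08, n = 3), and at 2.33, 2.31 and 2.29 FPKM for R3-cKO (2.31 ± 0.02, n = 3). Each DZ value labelled R3-cKO was above each R3-Cntl value, and each DZ value of either genotype was above all 6 SFZ values. The order of the group means was therefore R3-Cntl SFZ, R3-cKO SFZ, R3-Cntl DZ and R3-cKO DZ, and only the first and second overlapped. The genotype difference was 0.57 in the DZ (1.87-fold in mean FPKM) and 0.06 in the SFZ, 0.51 apart. These differences are a description, since the gene was picked on them, and the DZ value moves with the pseudocount, from 0.85 with 0.1 to 0.23 with 5. Between libraries that shared a number, the DZ ratio of R3-cKO to R3-Cntl was 2.03, 1.79 and 1.80 for numbers 1, 2 and 3.

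Among genes tested, 8.03% did not overlap between genotypes in the DZ and 5.26% were higher in R3-cKO without overlap. Number 1, with a ratio of 2.03, was the only DZ pair in which both libraries carried Y-linked transcripts. It is 1 pair, and the part of sex in the result was not tested. In the DZ, 7 macrophage markers summed to 6.64 to 22.6 in R3-Cntl and 3.71 to 6.45 FPKM for R3-cKO, and 5 endothelial markers to 0.11 to 0.37 and 0.05 to 0.23 FPKM. Of the endothelial markers Emcn was at 0 in all 6 DZ libraries, and the other 4 were at 0.31 FPKM or less. The 4 keratinocyte markers summed to 1.08 to 1.30 in R3-Cntl and 1.81 to 2.61 FPKM for R3-cKO DZ libraries, without overlap. Dsp, a desmosome gene of many epithelia, made most of that difference (mean 0.18 against 0.97 FPKM), and Krt5 and Krt14 were at 0.10 FPKM or less in every DZ library. The 7 chondrocyte markers had a median DZ genotype difference of -0.41, against 0.05 over all genes, and 1 of the 7 was above 0. None of them passed an unadjusted p of 0.05 by limma there. The part of any of these lists in the result was not tested. The values rest on about 76 to 284 fragments per library, estimated from the smallest steps between low values, for which counting alone gives an error of 5.93 to 11.5%. In the R3-cKO DZ libraries that error is 5.93 to 6.42%, well above the coefficient of variation of 0.866% between the libraries, so their SD understates the error.

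The zone difference of Slc39a8 in R3-Cntl was 0.32, and the ratio of mean FPKM was 1.57. It is a description too, since the pattern the gene was picked for includes its R3-Cntl values. All R3-Cntl SFZ libraries were below 1 FPKM and all DZ libraries above it. The gene therefore passed the filter on low values through its DZ libraries alone, and the absence of overlap follows from that. In R3-cKO the DZ mean was 2.69 times the SFZ mean, which was not tested for the same reason.

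**Figure D1:**
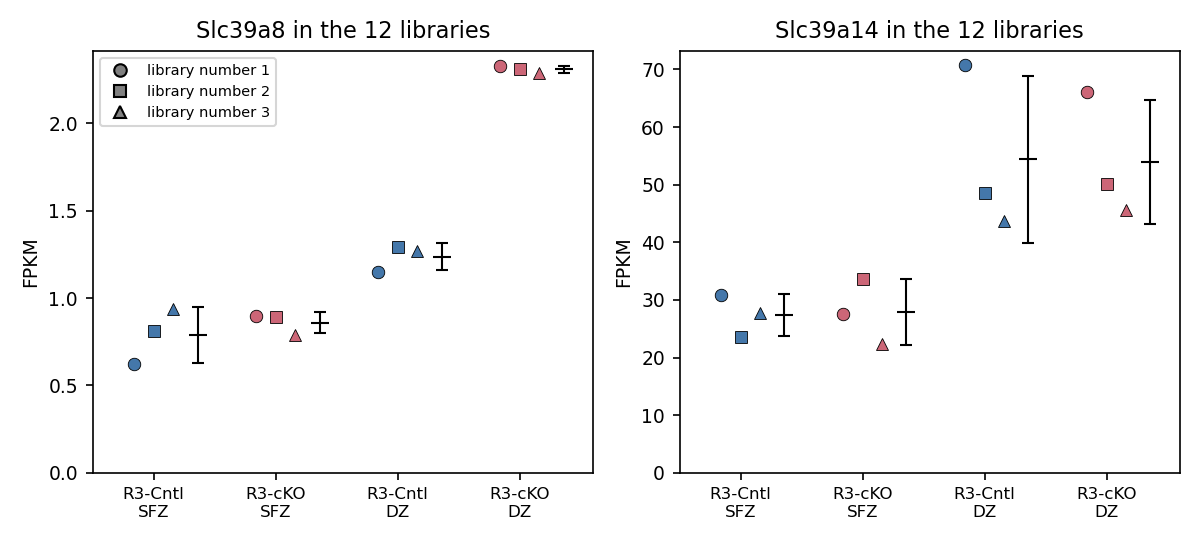
Slc39a8 (ZIP8) and Slc39a14 (ZIP14) in FPKM in each of the 12 libraries, by zone and genotype. Points are libraries, markers give the library number, and bars give the mean ± SD of 3 libraries. The DZ libraries labelled R3-cKO sit at 2.29 to 2.33 FPKM of Slc39a8, above every other library, while Slc39a14 separates the zones and not the genotypes.

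Slc39a14 (Entrez gene 213053, mm9 chr14:70703274-70751232, reverse strand) was far more abundant. R3-Cntl SFZ cells had 30.83, 23.52 and 27.79 FPKM (27.4 ± 3.67, SD, n = 3) and R3-Cntl DZ cells had 70.81, 48.54 and 43.75 FPKM (54.4 ± 14.4, n = 3). In R3-cKO it was at 27.56, 33.70 and 22.42 FPKM in the SFZ (27.9 ± 5.65, n = 3) and at 66.13, 50.05 and 45.64 FPKM in the DZ (53.9 ± 10.8, n = 3). Every DZ library was above every SFZ library of its genotype, and the lowest DZ library (43.75) was above the highest SFZ library of either genotype (33.70). The zone difference was 0.94 in R3-Cntl (SE 0.20, limma adjusted p = 0.066) and 0.93 in R3-cKO (SE 0.21, limma adjusted p = 0.164), which are ratios of mean FPKM of 1.99 and 1.93. Both missed the adjusted threshold, and 6 libraries cannot give an exact permutation p below 0.1, which both reached. With all 12 libraries in a single limma model the R3-Cntl difference passed (adjusted p = 0.031), but the share of all genes that did so was not counted. In R3-cKO it passed in no alternative fit (lowest limma adjusted p = 0.052). The 2 zone comparisons share no library.

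Over all genes tested, the median zone difference was -0.17 in R3-Cntl and -0.09 in R3-cKO, so Slc39a14 lay further above the typical gene than its own value shows. In R3-Cntl 5.96% of genes were higher in the DZ without overlap, and in R3-cKO 4.24%. The adjusted test called 1.24% of genes in R3-Cntl and 0.0176% in R3-cKO, and with the library number as a block, which pairs the R3-cKO libraries, 3.11% in R3-cKO. The chondrocyte marker sums given above were also higher in every DZ group. In R3-Cntl the macrophage markers summed to 7.11 to 166.7 FPKM in SFZ and 6.64 to 22.6 FPKM in DZ libraries, which overlapped. In R3-cKO they summed to 14.5 to 137.1 FPKM in the SFZ and 3.71 to 6.45 FPKM in the DZ, without overlap. The part of either in the zone difference of Slc39a14 was not tested.

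For Slc39a14, the genotype difference was 0.02 in the SFZ (95% interval -0.42 to 0.45) and 0.00 in the DZ (-0.54 to 0.54), with limma adjusted p of 1.0 in both. With the library number as a block, which pairs the DZ libraries, the DZ interval is -0.18 to 0.18. Between libraries of the same number, the DZ ratios of R3-cKO to R3-Cntl were 0.934, 1.03 and 1.04. Of the 14 ZIP genes in the table, Slc39a14 ranked between 2 and 5 in the 12 libraries, at 6.18 to 18.0% of their summed FPKM. Slc39a8 ranked 10 in every library, at 0.177 to 0.613%, and the importer with the highest level in every library was Slc39a7 (ZIP7), which releases zinc from the endoplasmic reticulum.

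Slc30a1 (Entrez gene 22782, mm9 chr1:193730646-193737126, forward strand) encodes the zinc exporter of the plasma membrane. In the SFZ it was at 4.89, 3.76 and 3.43 in R3-Cntl and 5.66, 4.16 and 3.71 FPKM for R3-cKO. In the DZ it was at 5.82, 4.37 and 3.26 in R3-Cntl and 5.90, 4.42 and 3.23 FPKM for R3-cKO. In all 4 groups library 1 was highest and library 3 lowest, and all groups overlapped. Between DZ libraries of the same number the genotype ratios were 1.01, 1.01 and 0.991. In the SFZ they were 1.16, 1.11 and 1.08, but there the numbers do not pair the libraries. The genotype difference was 0.01 in the DZ (95% interval -0.58 to 0.59, limma adjusted p = 0.999) and 0.13 in the SFZ (-0.32 to 0.57, limma adjusted p = 1.0). The zone difference was 0.11 (-0.38 to 0.60) in R3-Cntl and -0.01 (-0.56 to 0.54) in R3-cKO. Over all alternatives of the processing the R3-Cntl value ran from -0.06 to 0.38.

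Mtf1 (Entrez gene 17764, mm9 chr4:124479348-124527044, forward strand) lay between 2.91 and 3.34 FPKM in all 12 libraries. Group means were 3.09 ± 0.13 in R3-Cntl SFZ, 3.10 ± 0.17 in R3-cKO SFZ, 3.07 ± 0.18 in R3-Cntl DZ and 3.20 ± 0.13 in R3-cKO DZ (SD, n = 3 each), and all 4 overlapped. The genotype difference was 0.04 in the DZ (95% interval -0.23 to 0.32) and 0.00 in the SFZ (-0.27 to 0.27). The zone difference in R3-Cntl was -0.01 (-0.28 to 0.27) but 0.29 after quantile normalization, so its direction depends on the scaling. MTF1 is regulated by zinc binding and entry into the nucleus, which RNA levels do not measure.

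Mt1 and Mt2 lie side by side on chromosome 8, on the same strand with 5521 bases between the end of Mt2 and the start of Mt1. Mt1 (Entrez gene 17748) is at mm9 chr8:96702989-96704225 and Mt2 (Entrez gene 17750) at chr8:96696518-96697467. They had the highest group means of the 6 genes, although in R3-Cntl DZ library 3 Mt2 (30.93 FPKM) was below Slc39a14 (43.75 FPKM). Their transcripts are similar, and how shared reads were counted is not given in the sources used here, so the split between them is uncertain.

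The promoters of the zinc-responsive genes are shown because MTF1 acts through the MRE. Each window runs from 250 bases before to 50 bases after the RefSeq transcript start, which for Slc30a1 and Mtf1 lies downstream of the gene start printed above. The sequences are from RefSeq (assembly GRCm38.p6) and were matched without a mismatch to mm9, whose coordinates are given. Capitals mark the MRE core, searched on both strands as TGCACNC or TGCGCNC. All are on the forward strand, so a match on the reverse strand reads as its reverse complement.

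Mt1, chr8:96702739-96703038: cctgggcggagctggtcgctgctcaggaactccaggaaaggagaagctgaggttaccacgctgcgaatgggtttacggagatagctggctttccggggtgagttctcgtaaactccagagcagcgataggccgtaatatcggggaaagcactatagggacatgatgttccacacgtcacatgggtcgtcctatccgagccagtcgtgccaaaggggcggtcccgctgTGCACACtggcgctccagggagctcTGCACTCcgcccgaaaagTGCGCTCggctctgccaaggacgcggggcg

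Mt2, chr8:96696268-96696567: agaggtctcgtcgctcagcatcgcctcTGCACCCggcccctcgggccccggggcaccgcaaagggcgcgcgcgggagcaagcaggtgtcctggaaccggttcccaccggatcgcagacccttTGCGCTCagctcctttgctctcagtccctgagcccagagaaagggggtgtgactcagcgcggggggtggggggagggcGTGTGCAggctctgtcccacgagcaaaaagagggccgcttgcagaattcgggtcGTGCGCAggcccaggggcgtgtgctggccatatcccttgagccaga

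Slc30a1, chr1:193730410-193730709: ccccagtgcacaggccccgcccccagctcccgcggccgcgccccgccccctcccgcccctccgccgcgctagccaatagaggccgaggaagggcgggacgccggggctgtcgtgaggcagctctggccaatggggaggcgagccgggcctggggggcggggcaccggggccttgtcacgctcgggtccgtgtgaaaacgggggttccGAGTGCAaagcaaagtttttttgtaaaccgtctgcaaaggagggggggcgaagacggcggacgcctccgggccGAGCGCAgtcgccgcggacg

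The Mt1 window held 3 MRE cores, the first of them at -23 to -17 from the annotated start and the others at 3 to 9 and 21 to 27. Mt2 held 4, at -223 to -217, -128 to -122, -50 to -44 and 5 to 11. Slc30a1 held 2, at -43 to -37 and 31 to 37. None overlapped another match. Cores outside the 300 bases of each window were not searched, so these are counts for the windows alone. Of 32851 RefSeq promoter windows of the same 300 bases, 25.7% held at least 1 MRE core, 7.11% at least 2, 1.97% at least 3 and 0.518% at least 4. A match of letters is a description and no evidence of binding.

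Slc39a8 has 2 annotated windows, which are shown because the gene was picked in a Runx3 experiment. Here capitals mark both the MRE core and the Runx motif, searched on both strands as TGTGGT or TGCGGT, which reads ACCACA or ACCGCA on the opposite strand.

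Slc39a8 window 1, chr3:135487993-135488292: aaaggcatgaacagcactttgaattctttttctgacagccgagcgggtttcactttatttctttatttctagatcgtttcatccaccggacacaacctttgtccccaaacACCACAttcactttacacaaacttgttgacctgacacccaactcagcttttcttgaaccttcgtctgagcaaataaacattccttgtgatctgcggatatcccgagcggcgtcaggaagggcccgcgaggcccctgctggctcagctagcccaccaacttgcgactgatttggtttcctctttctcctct

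Slc39a8 window 2, chr3:135488371-135488670: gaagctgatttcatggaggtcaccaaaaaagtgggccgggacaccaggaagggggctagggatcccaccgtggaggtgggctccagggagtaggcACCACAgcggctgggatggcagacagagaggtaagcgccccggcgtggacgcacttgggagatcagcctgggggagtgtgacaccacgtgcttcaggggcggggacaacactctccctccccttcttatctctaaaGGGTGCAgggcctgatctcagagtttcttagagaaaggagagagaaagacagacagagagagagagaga

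Window 1 held no MRE core and 1 Runx match at -140 to -135. Window 2 held 1 MRE core at -19 to -13 and 1 Runx match at -155 to -150, counted from its own start. At least 1 Runx match was found in 22.4% of all windows, and 1 was also present in Mt2 at -196 to -191. The Mtf1 window held neither motif. The search covered 5 of the 6 genes, and the Slc39a14 promoter was not analysed here.

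**Figure D2:**
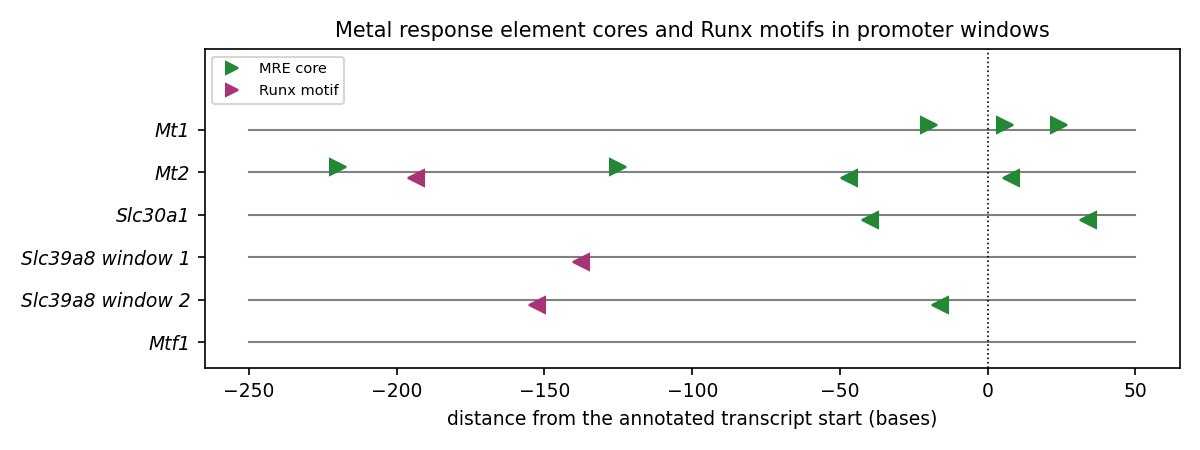
Matches to the MRE core and the Runx motif in 6 promoter windows of 5 genes, by distance in bases from the annotated start. Each horizontal line is a window of 300 bases and each marker a match, pointing right on the forward strand and left on the reverse strand. The 4 cores of Mt2 and the 3 of Mt1 are the most in any window shown.

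In SFZ libraries 1, 2 and 3, Mt1 was at 250.24, 142.92 and 141.05 FPKM under R3-Cntl and at 414.63, 119.12 and 260.63 FPKM under R3-cKO. In the DZ it was at 390.35, 231.49 and 51.36 in R3-Cntl and at 363.71, 110.80 and 167.61 FPKM for R3-cKO. The coefficient of variation within a group was 35.1 to 75.6%, and all 4 groups overlapped. Library 1 was highest in all 4 groups, as for Slc30a1.

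Mt2 was at 215.39, 96.56 and 109.33 in R3-Cntl SFZ and at 389.17, 79.93 and 171.41 FPKM for R3-cKO SFZ. In the DZ it was at 339.77, 231.33 and 30.93 in R3-Cntl and at 332.37, 85.75 and 134.29 FPKM for R3-cKO. Libraries that were high in Mt1 were high in Mt2, and the groups again overlapped. The ratio of Mt1 to Mt2 stayed between 1.001 and 1.66 in all 12 libraries while each gene varied several-fold.

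The genotype difference of Mt1 was 0.45 in the SFZ (SE 0.49, 95% interval -0.73 to 1.63, limma adjusted p = 1.0) and 0.18 in the DZ (SE 0.79, -1.71 to 2.07, limma adjusted p = 0.999). Single libraries moved these values. In the SFZ the Mt1 difference was 0.04 without R3-cKO library 1 and 0.93 without R3-cKO library 2. The DZ difference was -0.67 without R3-Cntl library 3, whose 51.36 FPKM was the lowest of all, and -0.29 without R3-cKO library 1. For Mt2 the differences were 0.41 in the SFZ (SE 0.61, -1.07 to 1.89) and 0.21 in the DZ (SE 0.94, -2.05 to 2.47), and in the DZ -0.84 and -0.33 without the same libraries. All of these intervals include 0 and are wide. The zone differences were -0.04 for Mt1 and 0.04 for Mt2 in R3-Cntl, and -0.31 and -0.16 in R3-cKO, each with an interval that includes 0. Between R3-cKO libraries of the same number the DZ to SFZ ratios of Mt1 were 0.877, 0.930 and 0.643, lower in all 3, and with that number as a block its interval was -0.66 to 0.04 (limma adjusted p = 0.204).

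**Figure D3:**
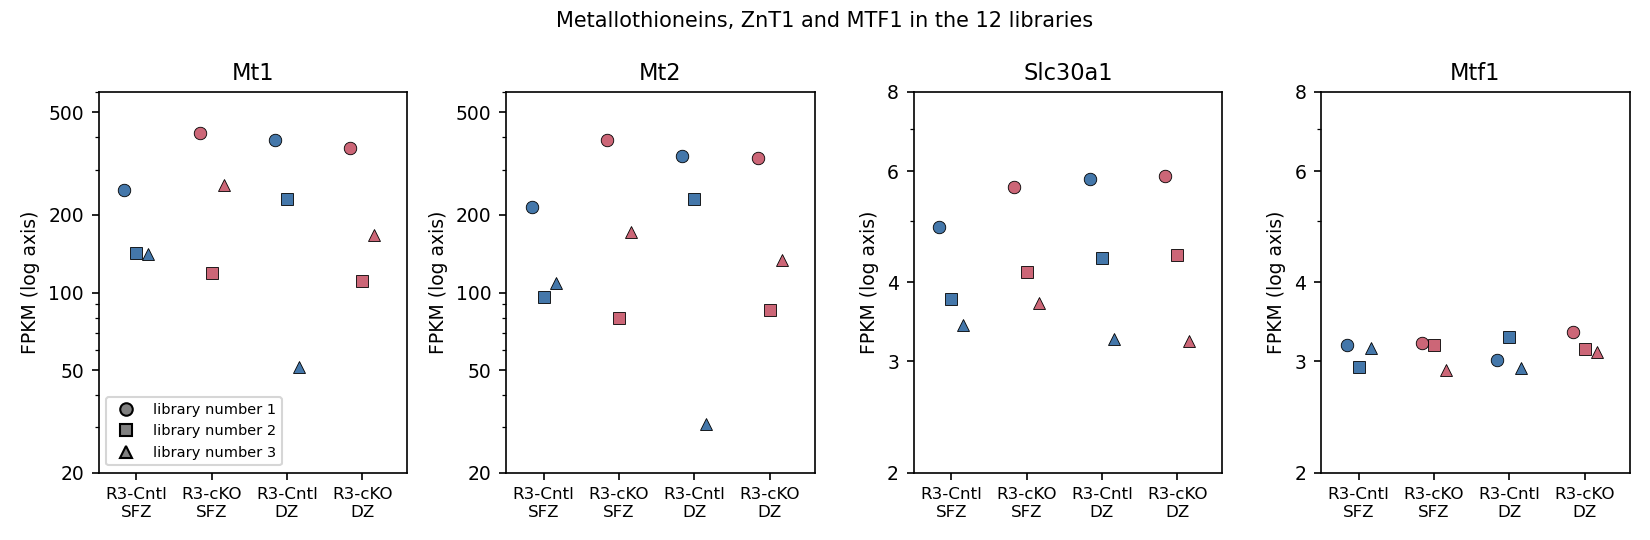
Mt1, Mt2, Slc30a1 and Mtf1 in FPKM in each library by zone and genotype, on log axes. Points are libraries and markers give the library number. Libraries numbered 1 are highest for Mt1, Mt2 and Slc30a1 in all 4 groups, and Mtf1 is nearly level between 2.91 and 3.34 FPKM.

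**Figure D4:**
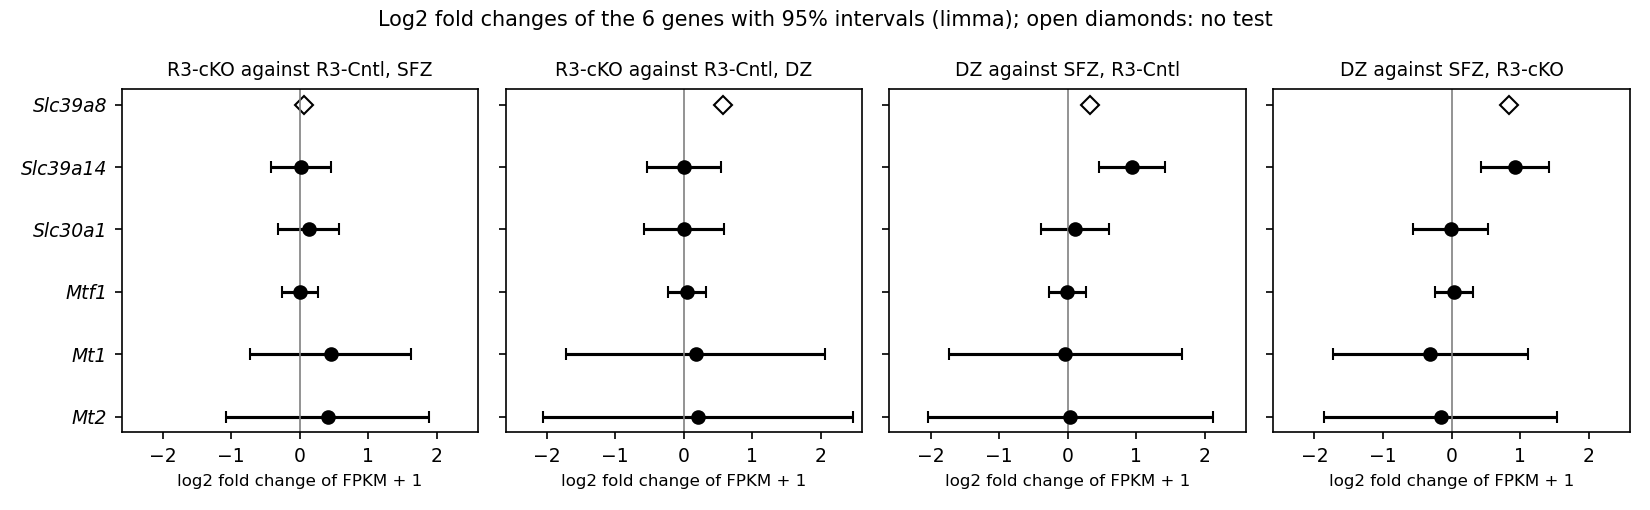
Differences in log2(FPKM + 1) of the 6 genes with 95% intervals, for the genotype comparison in each zone and the zone comparison in each genotype. Slc39a8 is an open diamond without an interval, since it was picked on its values. Only the Slc39a14 zone differences, 0.94 and 0.93, have intervals clear of 0, and neither passed the adjusted threshold.

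No tested member passed an unadjusted p of 0.05 by limma in either genotype comparison, where 0.295% of genes in the SFZ and 3.64% in the DZ did. In the interaction of genotype with zone none did either, against 0.841% of genes. In each zone comparison 1 member did, Slc39a14, which was higher in the DZ. There, 27.4% of genes in R3-Cntl and 14.1% in R3-cKO passed, of which those higher in the DZ made up 4.94% and 3.03% of all genes tested. In the genotype comparisons no gene of the whole table passed an adjusted p of 0.05.

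The other zinc transporters were surveyed as fixed lists. Of the 12 other ZIP genes 8 passed the filter on low values, and in the DZ genotype comparison 1 had an unadjusted limma p under 0.05, in the higher direction in which 2.5% of all genes passed. It was Slc39a13 (ZIP13), which moves zinc out of vesicles of the secretory pathway in connective tissue, at 31.29, 33.87 and 32.06 in R3-Cntl DZ and 38.72, 47.89 and 38.56 FPKM for R3-cKO DZ (log2 difference 0.35, limma adjusted p = 0.999). Its DZ groups did not overlap, where 5.26% of all genes were higher without overlap, and its SFZ groups overlapped. With the library number as a block, which pairs the DZ libraries, Slc39a13, Slc39a11 and Slc39a6 had an unadjusted limma p under 0.05. The shares of all genes that did so, or that went in 1 direction in all 3 same-numbered pairs, were not counted. No gene of the table passed an adjusted p of 0.05 with that block. Slc39a11 was lower in R3-cKO in all 3 same-numbered pairs (-0.45, interval -0.65 to -0.25, limma adjusted p = 0.156). Slc39a6 was higher in all 3 (0.23, interval 0.01 to 0.45, limma adjusted p = 0.291). By zone in R3-Cntl, 1 ZIP gene was higher in the DZ at the unadjusted threshold (Slc39a11, 0.62) and 3 were lower (Slc39a10, -0.65, Slc39a1, -0.36, and Slc39a3, -0.28), the direction in which 22.4% of all genes passed. In R3-cKO the only one was Slc39a10 (-0.59, limma adjusted p = 0.114), where 11.1% of all genes were lower at that threshold. With the library number as a block it passed (limma adjusted p = 0.047), as 3.11% of all genes did. Slc39a10 (ZIP10), an importer reported to be repressed by MTF1, had R3-Cntl values of 7.01, 7.81 and 8.25 FPKM in the SFZ and 3.68, 4.06 and 6.13 FPKM in the DZ. In R3-cKO it was at 6.75, 7.05 and 7.07 FPKM in the SFZ and 4.01, 4.36 and 4.49 FPKM in the DZ, so its zones were apart in both genotypes in the direction opposite to Slc39a14. Of all genes, 26.5% in R3-Cntl and 16.8% in R3-cKO were lower in the DZ without overlap.

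Of the 9 other ZnT genes 5 passed the filter in the genotype and zone comparisons. None had an unadjusted p under 0.05 between genotypes by limma. By zone in R3-Cntl, Slc30a9 was higher (0.33) and Slc30a4, which loads zinc into vesicles, was lower (-0.35) in the DZ at that threshold, with limma adjusted p of 0.117 and 0.091. In R3-cKO only Slc30a4 was (-0.40, limma adjusted p = 0.256). Of all genes in R3-Cntl 4.94% were higher and 22.4% lower at that threshold, and in R3-cKO 11.1% were lower. The transporter of highest level on this list, Slc30a5 (ZnT5), which supplies zinc to the secretory pathway, was between 28.35 and 35.00 FPKM in all libraries.

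**Figure D5:**
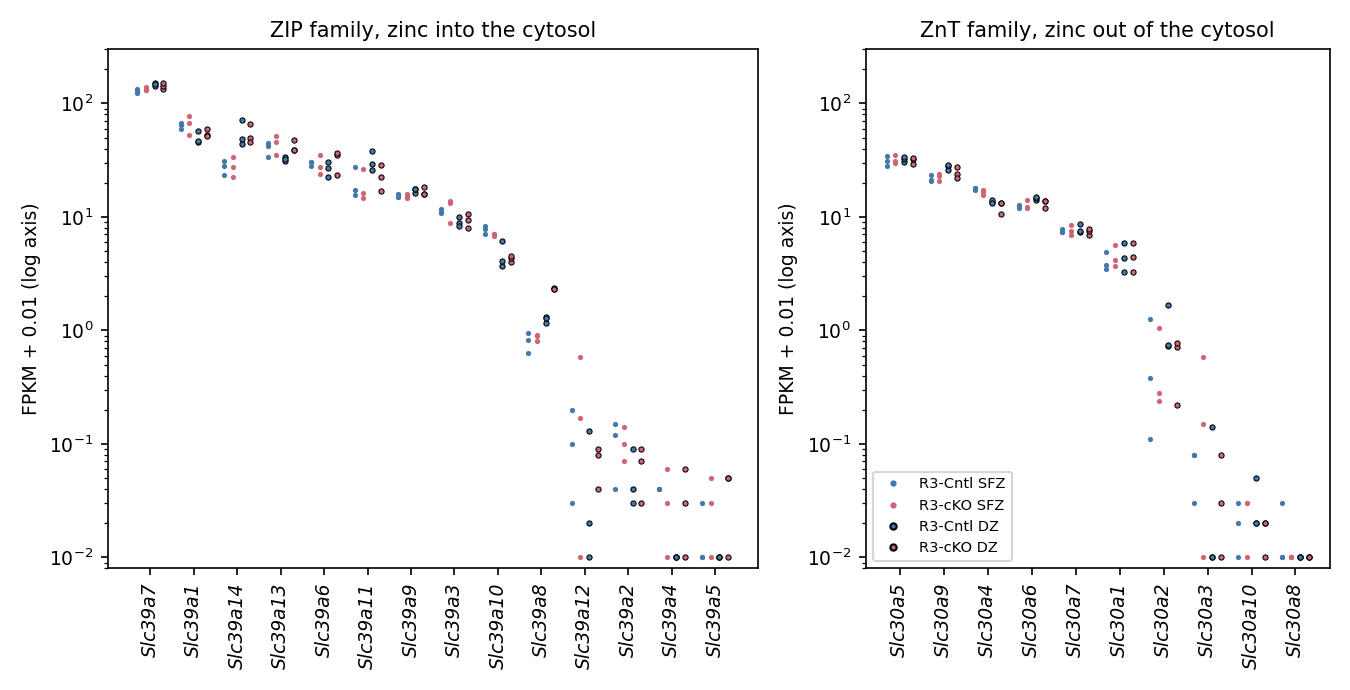
FPKM of 14 ZIP genes (left) and 10 ZnT genes (right) in each of the 12 libraries, on a log axis with 0.01 added so that values of 0 can be drawn. Points are libraries, coloured by genotype, and black outlines mark the DZ. Slc39a7 is the highest of the importers in every library, Slc39a8 ranks 10 at 0.62 to 2.33 FPKM, and the DZ points of Slc39a14 lie above its SFZ points.

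Mt3, the metallothionein of brain, was at 0.21 FPKM or less in every library, and Mt4 was not analysed here. Of 6 symbols listed as other genes that depend on MTF1, 5 were found in the table and passed the filter, among them Slc39a10, which is also on the ZIP list. None passed an unadjusted p of 0.05 between genotypes without the block. By zone in R3-Cntl 3 of them were lower in the DZ at that threshold by limma, one of which was Csrp1, a muscle and fibroblast LIM protein (-0.96, adjusted p = 0.165), and another Slc39a10. In R3-cKO 1 was, again Slc39a10. Of all genes 22.4% in R3-Cntl and 11.1% in R3-cKO were lower at that threshold. The list's median zone difference was -0.63 in R3-Cntl against -0.17 over all genes. Selenow, a selenoprotein and the most abundant of the list, differed by -0.21 (limma adjusted p = 0.392). Between genotypes in the DZ, with the library number as a block, Csrp1 passed the unadjusted threshold. It was higher in R3-cKO in all 3 same-numbered pairs (0.99, interval 0.54 to 1.43, limma adjusted p = 0.159). The share of all genes past the unadjusted threshold with the block was not counted.

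Proteases reported downstream of ZIP8 and MTF1 in chondrocytes were examined with the same filter, which 4 of 5 passed in the SFZ and 2 of 5 in the DZ. Mmp13, collagenase 3, was at 117.52, 130.11 and 149.67 in R3-Cntl SFZ and 84.30, 62.22 and 37.90 FPKM for R3-cKO SFZ. It was lower in R3-cKO without overlap (-1.16, SE 0.29, limma adjusted p = 1.0), where 2.4% of genes did not overlap between the genotypes and 0.953% were lower without overlap. In the DZ, where Slc39a8 was higher, Mmp13 was at 51.28, 164.96 and 454.07 in R3-Cntl and 26.27, 50.61 and 86.21 FPKM for R3-cKO (-1.67, SE 0.80, limma adjusted p = 0.999). The DZ groups overlapped, but the R3-cKO library was the lower in all 3 same-numbered pairs. How many of all genes were lower in all 3 was not counted. With the library number as a block the Mmp13 interval was -2.35 to -0.99 (limma adjusted p = 0.147). No gene of the table passed an adjusted p of 0.05 there. All 4 proteases that passed the filter in the SFZ differed by less than 0 there, with a median of -0.78 against -0.01 over all genes, and Mmp13 alone passed the unadjusted threshold, which 0.295% of all genes did. Mmp3 (-0.62) and Mmp12 (-0.93), named after their values were seen, overlapped between genotypes. In the R3-Cntl SFZ libraries Mmp12 was at 8.18, 6.07 and 0.03 FPKM and the macrophage gene Lyz2 at 126.78, 102.38 and 3.56 FPKM. The 4 hypertrophic markers, genes of maturing chondrocytes that also make Mmp13, had a median genotype difference of -0.56 in the SFZ and -0.30 in the DZ. The part of either in the protease differences was not tested. Adamts5, an aggrecanase, differed by -0.19 in the SFZ between genotypes and by 0.58 in the DZ (95% interval -0.52 to 1.68), where it was higher in all 3 same-numbered pairs (with the block 0.11 to 1.06, limma adjusted p = 0.254). Its R3-Cntl values were 8.13, 23.12 and 16.31 FPKM in the SFZ and 0.16, 2.10 and 2.45 FPKM in the DZ (-2.75, SE 0.51, limma adjusted p = 0.057). Its zone difference in R3-cKO was -1.98 (SE 0.24, limma adjusted p = 0.074), which passed with the block (adjusted p = 0.030), as 3.11% of all genes did.

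Genes of iron and manganese handling, the other metals of ZIP8 and ZIP14, were examined next. Of the 6 genes 5 passed the filter, and none had an unadjusted limma p under 0.05 in any comparison without the block. With the library number as a block, Slc40a1 did in the zone comparison of R3-cKO (-0.79, limma adjusted p = 0.157). The share of all genes past the unadjusted threshold with the block was not counted. Slc40a1 did not pass the adjusted threshold, which 3.11% of all genes did there. The ferritin chains Ftl1 and Fth1, which store iron, differed between genotypes in the DZ by 0.24 (SE 0.31) and 0.03 (SE 0.17). The manganese exporter Slc30a10 was at most 0.04 FPKM.

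Glucocorticoids and inflammatory signals also regulate metallothioneins and ZIP14, and a list of each was measured. Of the 6 glucocorticoid response genes 5 passed the filter, and 1 had an unadjusted limma p under 0.05 between genotypes in the DZ. It was Sgk1, a serum and glucocorticoid regulated kinase, at 24.06, 34.37 and 27.71 in R3-Cntl DZ and 66.69, 70.68 and 38.58 FPKM for R3-cKO DZ (0.97, SE 0.26, limma adjusted p = 0.999). Its groups did not overlap in the DZ, where 2.5% of all genes were higher at the unadjusted threshold and 5.26% were higher without overlap. Tsc22d3, another induced target, differed by -0.22 there (SE 0.24). Of the 7 inflammatory genes 4 passed the filter, and 1 was higher in DZ cells labelled R3-cKO at the unadjusted threshold, as were 2.5% of all genes. It was Cebpd, a transcription factor of the acute phase response, at 9.05, 11.56 and 8.24 in R3-Cntl and 14.38, 17.10 and 12.72 FPKM for R3-cKO (0.57, SE 0.17, limma adjusted p = 0.999). Cebpd was also the 1 gene of the list past the unadjusted threshold in the interaction with zone (0.64, limma adjusted p = 0.999), where 0.841% of all genes were. Lcn2, an iron-trapping lipocalin, differed by -0.66 (SE 0.50). Between same-numbered DZ libraries, Sgk1, Cebpd, Csrp1 and Ftl1 were higher in R3-cKO in 3 of 3 pairs and Tsc22d3 and Lcn2 lower in 3 of 3. None of these passed with the block (limma adjusted p of 0.133 to 0.447). Other genes of their lists were also higher in 3 of 3 pairs, and the share of all genes that went in 1 direction was not counted.

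Genes whose levels ran most like each member over the 12 libraries were named by Pearson r of log2(FPKM + 1) among 11764 other genes, as a description. The libraries share zones, genotypes and, within pairs, a number, so a gene that separates the zones will score high for any member that does. For Slc39a8 the closest genes included Fxr2 (0.924), an RNA-binding protein of the fragile X family, Kank1 (0.921), Arhgap31 (0.921), a GTPase-activating protein, and Edem2 (0.916), which acts in endoplasmic reticulum quality control. Slc39a14 was not among them (r = 0.71), and within a zone its r with Slc39a8 was -0.01 over the 6 SFZ and -0.06 over the 6 DZ libraries. Mt1 and Mt2 did not follow Slc39a8 (r = -0.09 and -0.02 over 12 libraries).

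The metallothioneins were closest to each other. The r between Mt1 and Mt2 was 0.989 over 12 libraries, 0.983 in the SFZ and 0.996 in the DZ, and each was the nearest of 11764 genes to the other. The part of reads shared between their similar transcripts in this value was not tested. Next was Sqstm1 (0.944) for Mt1, an autophagy receptor, and 1600002K03Rik (0.944) for Mt2. The r of Slc30a1 was 0.761 with Mt1 and 0.780 with Mt2, and its nearest genes were Dapk3 (0.950) and Cln8 (0.926). The nearest to Slc39a14 were Eps8l2 (0.975) and Rab33b (0.970), a small GTPase of the Golgi, and to Mtf1 Hddc2 (0.863) and Mrpl38 (0.842). By rank correlation the closest genes included 1 of the 5 closest to Slc39a8 by Pearson r, 2 of 2 for Mt1, 1 of 2 each for Mt2, Slc39a14 and Slc30a1, and 0 of 2 for Mtf1. Eps8l2 separated the zones as Slc39a14 did, at 14.35 to 32.11 FPKM in the SFZ libraries and 44.30 to 87.04 FPKM in the DZ libraries.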

How the data were processed

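RNA-seq values of 12 libraries (3 per zone and genotype) were analysed. The authors mapped reads to mm9 (Bowtie 0.12.2, per the labels) and deposited 1 value per gene and library, taken here to be FPKM scaled by TMM. The unit was inferred from the values, and the gene counting tool is not given in the sources used here. Library sums were 392241 to 429213 FPKM. Near the smallest steps, 1 fragment on a transcript of 1 kb was worth about 0.0275 to 0.0325 FPKM, which limits precision for Slc39a8.

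Genes at 1 FPKM or more in at least 3 of the libraries compared were fitted with limma 3.58.1 (R 4.3.3, mean-variance trend) on log2(FPKM + 1), with Benjamini-Hochberg adjustment over all genes tested, after tests on simulated data. Each comparison was fitted on its own 6 libraries, and the interaction on all 12. Counts of genes past a threshold are from these fits, without the block, unless the block is named. How many of all genes went in 1 direction in all 3 same-numbered pairs was not counted. The exact two-sided permutation test cannot go below 0.1. The members and lists were chosen with earlier results of these data known. Named genes were the members, the 2 highest-mean genes of each list, ZIP, ZnT and protease genes with an unadjusted p under 0.05, and the genes most like each member. A gene that this rule named is not reported here.

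Deviations of same-numbered libraries correlated at 0.65, 0.79 and 0.69 between genotypes in the DZ and at 0.41, 0.78 and 0.65 between zones in R3-cKO, so there the numbers pair the libraries. Between genotypes in the SFZ they correlated at 0.79, -0.11 and -0.41, so the numbers do not pair those libraries. The pairing comes from the data, with the study naming littermates. Alternatives were other scalings, filters and pseudocounts, a replicate block, a single model and leaving out each library. Promoters were searched in Python 3.11.15.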

Additional observations from a re-analysis of the deposited data

How the results depend on the processing

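Slc39a8 differed by 0.54 to 0.58 between genotypes in the DZ when each library was left out in turn, and by 0.23 (pseudocount 5) to 0.90 (ratio of arithmetic means) over all alternatives. In the zone comparison of R3-Cntl, Slc39a8 ranged from 0.11 to 0.65. The Slc39a14 zone difference kept its direction in every alternative, at 0.74 to 1.12 in R3-Cntl and 0.77 to 1.07 in R3-cKO. With the replicate block, the number of members passing an adjusted p of 0.05 between zones in R3-Cntl was 1 rather than 0, and with all 12 libraries in a single model it was also 1. This was Slc39a14 both times, by limma at 0.94 with adjusted p = 0.037 (block) and 0.031 (single model), and over its alternatives the adjusted p was 0.031 to 0.289. The cause was not tested. Same-numbered libraries correlated at 0.57, 0.11 and -0.15 there, so the numbers do not pair them. The block raised the genes called from 140 to 831 in R3-Cntl and from 2 to 352 in R3-cKO. The block changed no other call among the members. Genes of the whole table called by the single model were not counted.

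Small differences of members that passed no threshold changed sign, and the cause was not tested. Between genotypes in the DZ, quantile normalization gave -0.050 for Slc39a14, -0.062 for Slc30a1 and -0.033 for Mtf1. Median-of-ratios size factors gave -0.051 for Slc39a14 and -0.038 for Slc30a1, and the ratio of arithmetic means gave -0.011 for Slc39a14, -0.068 for Mt1 and -0.12 for Mt2. In the interaction, Mtf1 was -0.079 by quantile normalization and -0.011 by median-of-ratios. Between zones in R3-Cntl, Mtf1 was 0.29 and 0.13, and Mt1 0.030 and 0.14, under the same pair of scalings, with 0.33 for Mt1 by the ratio of means. Between zones in R3-cKO, Slc30a1 was 0.16, 0.081 and 0.0021 under the same settings.

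With each library left out in turn, the SFZ genotype difference ran from -0.13 to 0.16 for Slc39a14, -0.017 to 0.25 for Slc30a1, -0.023 to 0.037 for Mtf1, 0.039 to 0.93 for Mt1 and -0.17 to 0.97 for Mt2. In the DZ it ran from -0.15 to 0.20 for Slc39a14, -0.17 to 0.18 for Slc30a1, -0.67 to 0.79 for Mt1 and -0.84 to 0.87 for Mt2. The interaction ran from -0.17 to 0.19 for Slc39a14, -0.30 to 0.057 for Slc30a1, -1.11 to 0.34 for Mt1 and -1.24 to 0.46 for Mt2. Between zones in R3-Cntl the ranges were -0.061 to 0.28 for Slc30a1, -0.043 to 0.019 for Mtf1, -0.65 to 0.81 for Mt1 and -0.62 to 1.09 for Mt2. In R3-cKO they were -0.19 to 0.17 for Slc30a1, -0.79 to 0.10 for Mt1 and -0.72 to 0.42 for Mt2.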
